A study of Triticum aestivum with 2 samples.

Results

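Split MHSs were MNase hypersensitive sites (MHSs) that were 1 continuous site in 1 tissue of bread wheat and lay over 2 or more separate sites in the other. An MHS was a member when it overlapped at least 2 MHSs of the other tissue by 1 bp or more each, so the members were chosen by the start and end positions of the peaks in both lists. This gave 5687 of the 289446 seedling MHSs (1.96%), called split seedling MHSs here, and 1508 of the 277119 spikelet MHSs (0.544%), called split spikelet MHSs. Together they were 7195 of 566565 MHSs. The MHSs of the other tissue that overlapped a member are called its pieces, and the member is called the broad MHS or broad form. These names hold whatever the widths, and a piece may reach beyond the member or be wider than it.

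The study profiled open chromatin by MH-seq, the sequencing of small DNA fragments (40 to 100 bp) that micrococcal nuclease (MNase) releases from formaldehyde-fixed nuclei. The seedling sample was seedlings, 10 days old per its label, and the spikelet sample was spikelets at the booting stage. The methods of the study give a slightly younger seedling age, and name whole seedlings in 1 place and above-ground parts in another. Both samples came from wild type plants of the cultivar Chinese Spring with no treatment. Both tissues hold many cell types, so that fewer cells with an open site and less opening per cell cannot be told apart. There was 1 peak list per tissue, called by the authors on 2 merged biological replicates, so no difference between the tissues could be tested, the regions of a list were not replicates of a tissue, and intervals below cover counting error only.

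MNase cuts DNA that nucleosomes and other proteins leave exposed, and the small fragments it releases come mostly from accessible stretches such as promoters and enhancers, where transcription factors bind. A wide accessible stretch can hold several factor-bound segments with less accessible DNA between them, and a peak caller may report it as 1 region or as several. Bread wheat is an allohexaploid whose A, B and D subgenomes each carry 7 chromosomes, and its genes lie mostly towards the chromosome ends while the long middle is rich in repeats.

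A member usually lay over a pair of pieces. Of the split seedling MHSs, 5533 had 2 spikelet pieces, 153 had 3 and 1 had 4. Of the split spikelet MHSs, 1493 had 2 seedling pieces and 15 had 3. The pieces were 11513 different spikelet MHSs (4.15% of that list) under the split seedling MHSs, and 3027 different seedling MHSs (1.05% of that list) under the split spikelet MHSs. Among MHSs with any overlap at all, 3.12% of seedling sites (95% Wilson interval 3.04 to 3.20%) and 0.808% of spikelet sites (0.768 to 0.849%) were split. On each of the 21 chromosomes there were more split seedling than split spikelet MHSs. The ratio of the 2 numbers was 3.77 (3.56 to 3.99).

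That ratio moved with a property of the lists. The shortest distance between neighbouring MHSs was 140 bp in the seedling list and 65 bp in the spikelet list, where 4396 pairs of neighbours were closer than 140 bp. A gap that short could therefore appear between spikelet pieces but never between seedling pieces. When neighbours closer than 140 bp were joined, which touched the spikelet list alone, 3667 split seedling and 2017 split spikelet MHSs were left, a ratio of 1.82 (1.72 to 1.92), and split seedling MHSs were again the more numerous on 21 of 21 chromosomes. The study states a single set of peak calling settings, with a q limit of 0.01, yet seedling MHSs had a q of up to 0.0499 and spikelet MHSs of up to 0.0462. Whether the lists were called with the same fragment length and gap settings is not given in the sources used here, so a difference in calling and a difference between the tissues cannot be told apart in the ratio or in any share set against the other list. Why the lists differed in their shortest distance was not tested.

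The members with the most pieces show what a split looked like. Positions are in version 1.0 of the IWGSC assembly, where each chromosome is given in 2 parts, and are counted within the part. The seedling MHS on chromosome 5B, part 2, from 102326645 to 102328188, was 1544 bp wide and the only one over 4 spikelet MHSs. Its pieces were 200, 249, 261 and 594 bp wide, with gaps of 142, 73 and 66 bp between them. The seedling MHS had 95 reads piled up at its summit, the position of highest signal, and its fold, the ratio of the pileup plus 1 to the local background plus 1, was 6.20. The pieces had 27, 29, 28 and 38 reads at their summits and folds of 2.66, 2.85, 2.77 and 3.72. All 4 spikelet pieces thus lay below the seedling MHS in pileup and in fold, and the seedling summit lay within the widest piece.

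The widest split seedling MHS was on 1B, part 1, from 26089370 to 26092586, and spanned 3217 bp. Its 3 spikelet pieces were 304, 518 and 1252 bp wide and stood 387 and 323 bp apart, so that 60.7% of the seedling MHS was covered. Here the pileups hardly differed at the highest point: 57 reads at the seedling summit, against 58 at the summit of the strongest spikelet piece. The seedling MHS on 6D, part 1, from 331962995 to 331965698, held all of its 3 pieces (493, 405 and 974 bp), yet its summit lay just outside the first of them. It had a pileup of 72, against 25, 27 and 34 in the pieces.

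Among the split spikelet MHSs, the widest over 3 seedling pieces was on 6B, part 2, from 106986281 to 106988207. It was 1927 bp wide with a pileup of 61, and its seedling pieces were 365, 214 and 693 bp wide with pileups of 28, 30 and 42. On 3D, part 1, from 312885776 to 312887652, a spikelet MHS of 1877 bp with a pileup of 63 lay over seedling pieces of 729, 241 and 393 bp. The last of these had a pileup of 66 and a fold of 6.85, above the fold of 5.56 of the spikelet MHS itself. On 2D, part 1, from 417185995 to 417187780, a spikelet MHS of 1786 bp held 3 seedling pieces of 400, 288 and 241 bp that covered 52.0% of it.

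**Figure D1:**
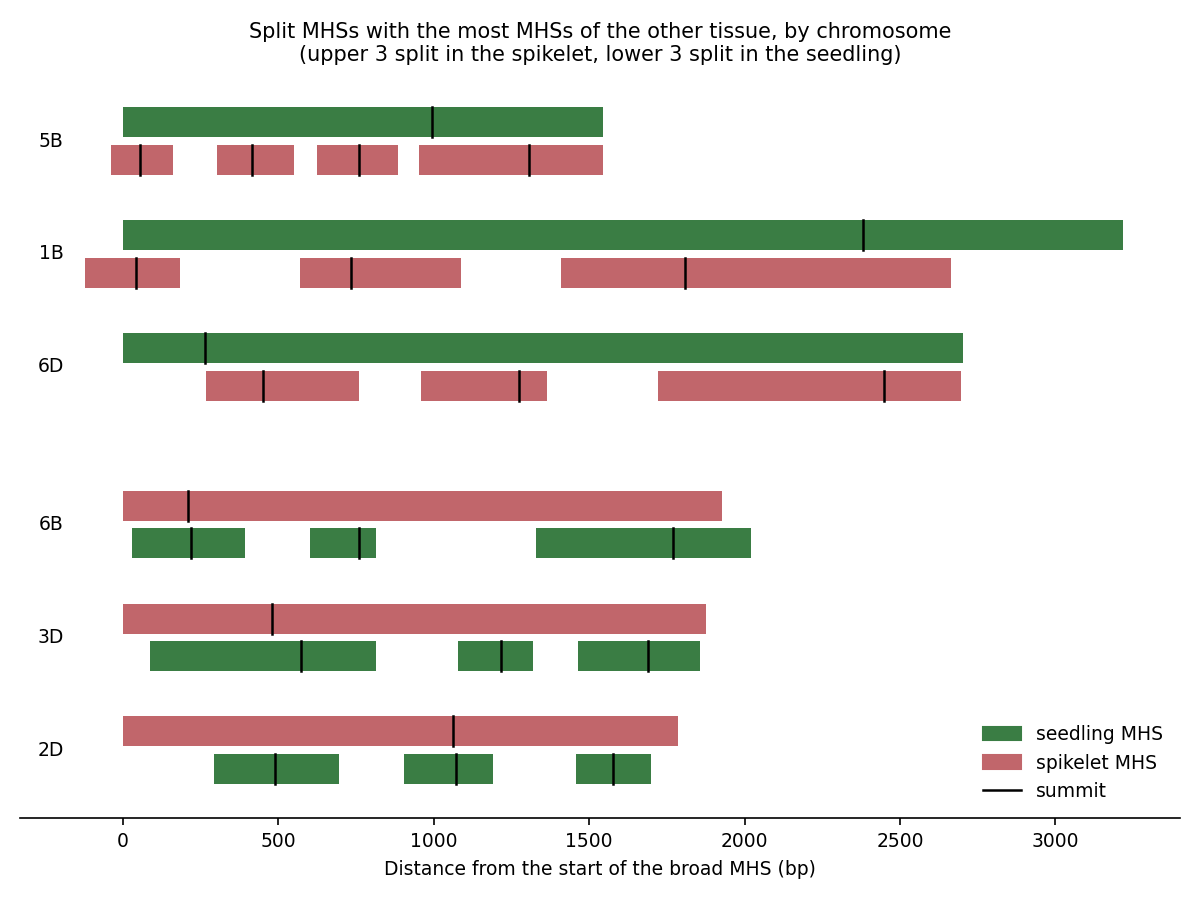
The 6 members with the most pieces, drawn to scale as distance in bp from the start of the broad MHS; each broad MHS is the upper bar of its pair with its pieces below it, black ticks are summits, and green is seedling and red is spikelet. The 5B seedling MHS lies over 4 spikelet MHSs, the other 5 members over 3 each, and the seedling summit on 6D falls just before the first spikelet MHS.

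Members were wide, which follows in part from the rule, since an MHS must reach across a gap to be split. The median width was 941 bp (order-statistic 95% interval 934 to 951; range 202 to 3217) for split seedling MHSs, against 400 bp for seedling MHSs with 1 overlap and 278 bp for those with none. Split spikelet MHSs had a median of 875.5 bp (846 to 901; range 223 to 2311), against 372 bp with 1 overlap and 276 bp with none. The members made up 5.50 Mb in the seedling, 4.63% of all bp in that list, and 1.36 Mb in the spikelet, 1.29% of its bp.

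The share of MHSs that were split climbed with width in both lists. It was 0.0297% of seedling and 0.0193% of spikelet MHSs of 200 to 299 bp, 0.705% and 0.367% at 400 to 599 bp, and 14.5% and 5.71% at 800 to 999 bp. At 1000 to 1499 bp it was 33.8% of seedling MHSs (32.6 to 35.0%) and 15.0% of spikelet MHSs (13.8 to 16.3%). At 1500 bp or more it was 64.4% (60.4 to 68.2%; 376 of 584) and 29.7% (24.6 to 35.5%; 80 of 269). Among all MHSs of 1000 bp or more, 2404 of 6591 from seedlings (36.5%) and 537 of 3321 from spikelets (16.2%) were split. With neighbours closer than 140 bp joined, these shares were 28.6% (1888 of 6591) and 19.7% (889 of 4504), closer together than in the lists as deposited.

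**Figure D2:**
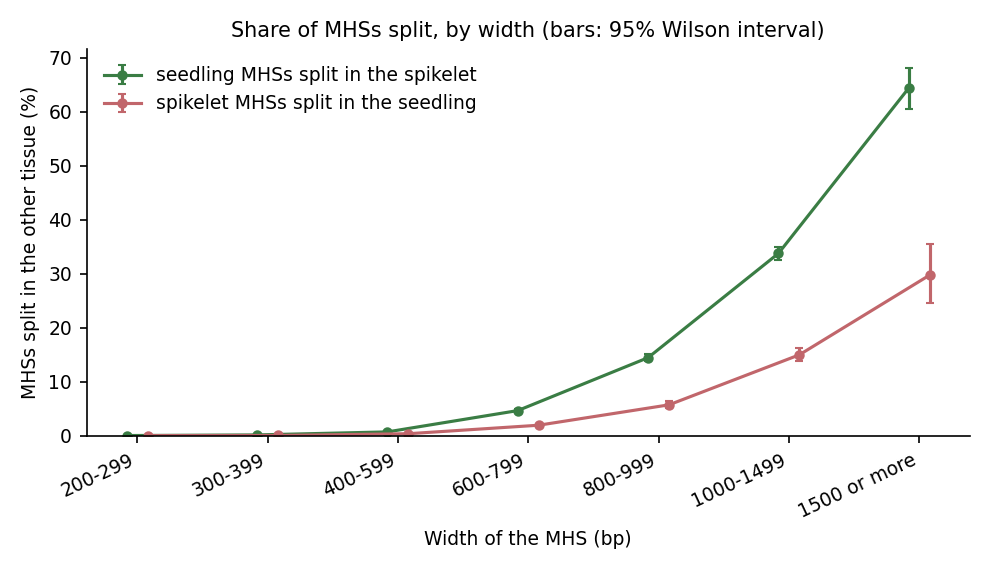
Percent of MHSs split in the other tissue (vertical axis) by MHS width in bp (horizontal axis), for seedling and spikelet MHSs, with 95% Wilson intervals. In the class of 1500 bp or more the share reaches 64.4% for seedling and 29.7% for spikelet MHSs.

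At the limit of the rule, 77 split seedling MHSs reached their second piece by 1 to 10 bp (median width 540 bp, median fold 4.17), and 87 seedling MHSs with 1 overlap missed a second by 10 bp or less (621 bp, fold 3.99). In the spikelet, 58 members were just inside (504 bp, fold 4.16) and 63 MHSs just outside (522 bp, fold 4.69).

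The gaps between neighbouring pieces were mostly short. Within the split seedling MHSs there were 5842 gaps with a median of 184 bp (180 to 189; range 65 to 1278), of which 2116 (36.2%) were under 140 bp. Another 1053 gaps measured 140 to 199 bp, 1362 measured 200 to 299 bp, 982 measured 300 to 499 bp and 329 measured 500 bp or more. In the split spikelet MHSs there were 1523 gaps with a median of 208 bp (205 to 212; range 140 to 1364). Of these, 670 measured 140 to 199 bp, 574 measured 200 to 299 bp, 232 measured 300 to 499 bp and 47 measured 500 bp or more. Every gap of 2020 split seedling MHSs (35.5%) was under 140 bp, and the other 3667 had at least 1 gap that both lists could show.

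Summits of neighbouring pieces lay a median of 598 bp apart in split seedling MHSs and 613 bp apart in split spikelet MHSs. The pieces were much alike in width, with medians of 356 bp for the spikelet pieces of split seedling MHSs and 357 bp for the seedling pieces of split spikelet MHSs, both close to the 336 bp and 352 bp of the lists they came from. All gaps together held 1290 kb under split seedling MHSs and 363 kb under split spikelet MHSs.

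**Figure D3:**
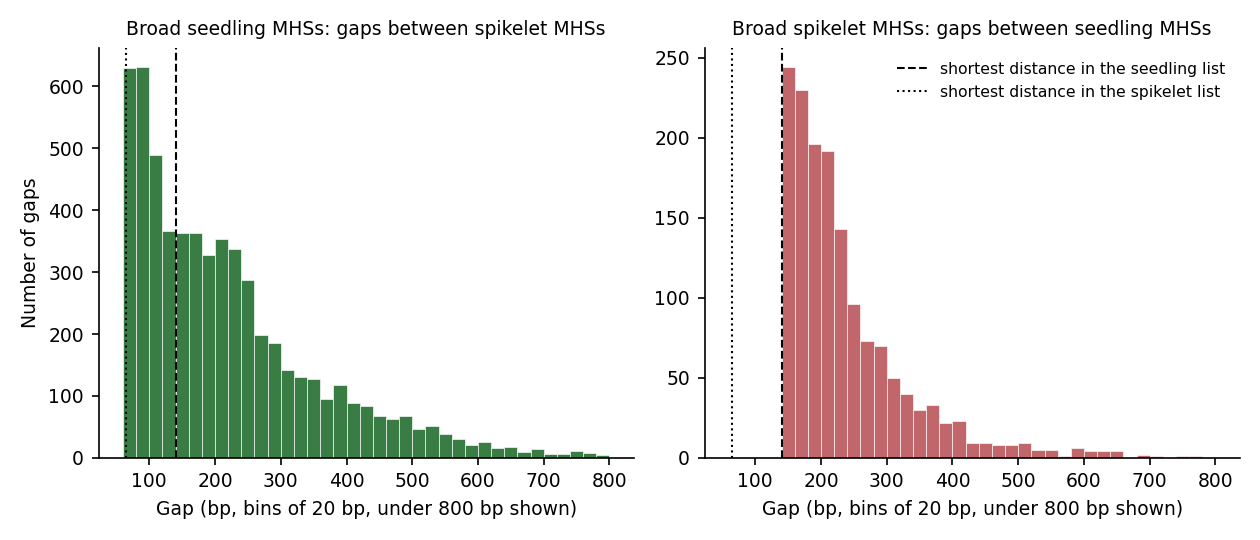
Number of gaps between neighbouring pieces (vertical axis) by gap length in bp (horizontal axis, 20 bp bins, gaps under 800 bp), within split seedling MHSs on the left and split spikelet MHSs on the right; the dashed line is the shortest distance in the seedling list (140 bp) and the dotted line that in the spikelet list (65 bp). Of 5842 gaps on the left, 2116 lie below the dashed line, where the right panel can hold none.

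The widest gap in a split seedling MHS measured 1278 bp, on 2B, part 2, from 211716277 to 211718443. That seedling MHS was 2167 bp wide with a pileup of 69, its summit lay in the gap, and its spikelet pieces had folds of 3.43 and 2.59. The next were a gap of 1238 bp on 7B, part 2, from 68906622 to 68908846, and a gap of 1235 bp on 2A, part 1, from 34783068 to 34784899, both with the seedling summit inside a piece. In the split spikelet MHSs the widest gap was 1364 bp, on 6B, part 2, from 145210213 to 145212325, again with the broad summit in the gap, and a pileup of 64, against at most 31 in its seedling pieces. It was followed by gaps of 1038 bp on 4A, part 1 (144843204 to 144845199) and 958 bp on 4D, part 2 (18171143 to 18172840). In the last of these the pileup was 46 at the spikelet summit and 84 at that of the stronger seedling piece.

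Pieces left part of each member uncovered. They covered a median of 70.4% of a split seedling MHS (69.8 to 71.0%) and 65.5% of a split spikelet MHS (64.5 to 66.2%), and less than 50% of 625 (11.0%) and 215 (14.3%) of them. In 861 split seedling MHSs (15.1%) all pieces lay inside the member, in 2754 (48.4%) a piece stuck out at 1 end, and in 2072 (36.4%) pieces stuck out at both ends. In the spikelet these numbers were 213 (14.1%), 707 (46.9%) and 588 (39.0%). The summits of all pieces lay inside the member in 4194 split seedling MHSs (73.7%) and in 860 split spikelet MHSs (57.0%). In the others at least 1 piece had its summit outside the member. From the first to the last base of its pieces the split form spanned a median of 1.06 times the width of a split seedling MHS and 1.15 times that of a split spikelet MHS, so in most loci the split form reached further than the broad one.

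The summit of the broad MHS usually fell on a piece and not in a gap. It did so in 4906 split seedling MHSs (86.3%, 85.3 to 87.1%), while 657 summits (11.6%) lay in a gap and 124 (2.18%) outside the outermost pieces. Among split spikelet MHSs, 1208 summits (80.1%, 78.0 to 82.0%) fell on a piece, 271 (18.0%) in a gap and 29 (1.92%) outside. The piece with the largest fold held the broad summit in 57.2% of split seedling and 50.9% of split spikelet MHSs. The strongest position of the broad form thus lay inside an MHS of both tissues in most loci. The part of the coverage given above in these shares was not tested.

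Signal at the summits is given as a description, because width and signal go together in a peak list. Split seedling MHSs had a median fold of 5.05 and a median pileup of 42 reads, against 4.60 and 32 in seedling MHSs with 1 overlap and 3.55 and 18 in those with none. Split spikelet MHSs had a median fold of 4.75 and a pileup of 40, against 4.94 and 35 with 1 overlap and 3.84 and 24 with none. In fold the spikelet members were thus below, and the seedling members above, the MHSs with 1 overlap. At equal width, both were below or level: among MHSs of 600 to 799 bp the median fold was 4.66 in split and 5.43 in 1-overlap seedling MHSs, and 4.57 and 5.50 in the spikelet. At 1000 to 1499 bp the medians were 5.61 for split and 5.65 for 1-overlap seedling MHSs, and for the spikelet 4.97 and 5.40.

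The local background moved with the members as well. Its median was 7.24 reads in split seedling MHSs, against 6.06 in those with 1 overlap, and 7.48 in split spikelet MHSs, against 5.84. A q of 1e-05 or lower was given to 93.8% of split seedling MHSs, against 66.1% of the whole seedling list, and to 94.2% of split spikelet MHSs, against 81.1% of the whole spikelet list. Of the spikelet pieces 78.5% reached that q, and of the seedling pieces 68.1%, which lay near the shares of their own lists. Every piece reached it in 62.4% of split seedling and 47.7% of split spikelet MHSs.

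The broad form was higher than all of its pieces in most loci, but not in all. Members were wide, and width and signal go together in a peak list. The matching share for MHSs with 1 overlap is not given here, so whether this was particular to split loci was not tested. Its fold was above that of every piece in 56.8% of split seedling and 57.6% of split spikelet MHSs. The pileup of the split seedling MHS was above that of every piece in 3496 cases (61.5%) and below that of every piece in 662 (11.6%). The pileup of the split spikelet MHS was above that of every piece in 904 (59.9%) and below in 170 (11.3%). The median ratio of the broad pileup to the highest piece was 1.13 for split seedling MHSs and 1.12 for split spikelet MHSs (quartiles 0.875 to 1.46 and 0.853 to 1.47), so in many loci the peak heights of the tissues were close. Pileups were not scaled between the lists, and the files give no read totals, so the depth of each library is unknown and these ratios also carry any difference in depth. The weaker piece had a median of 0.769 of the pileup of the stronger in split seedling MHSs and 0.772 in split spikelet MHSs.

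The largest fold among split seedling MHSs was on 2A, part 2, from 298641410 to 298642430, near the chromosome end, at 17.75 with a pileup of 70 over a background of 3.00. Its spikelet pieces had folds of 5.28 and 13.99 and lay 119 bp apart. The seedling MHSs on 1B, part 1 (366295222 to 366296446) and 5B, part 1 (392118336 to 392119695) followed with folds of 15.40 and 14.42 and gaps of 72 and 327 bp. The largest folds among split spikelet MHSs were 10.70, 10.62 and 10.54, on 4B, part 2 (179654522 to 179655990), 4B, part 1 (438150792 to 438151724) and 3B, part 2 (332928451 to 332928924). Of these 6 gaps, 2 were under 140 bp, both in the seedling members.

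Most loci were split in 1 direction only. Overlapping MHSs of both lists were grouped into loci, of which 6946 held a split MHS: 5442 held split seedling MHSs only, 1275 split spikelet MHSs only, and 229 both. Of the simple loci, 5298 were 1 seedling MHS over 2 spikelet MHSs and 1262 were 1 spikelet MHS over 2 seedling MHSs. Of the loci with both, 199 were chains of 2 seedling and 2 spikelet MHSs in which each tissue had a broad MHS over the pieces of the other. In all, 245 split seedling MHSs (4.31% of them) overlapped a split spikelet MHS, and 233 split spikelet MHSs (15.5%) overlapped a split seedling MHS. The largest chains, 2 loci, held 6 MHSs each.

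Along the chromosomes, members lay less towards the ends than other MHSs. The outermost 10% at either end held 26.2% of split seedling MHSs (25.1 to 27.4%), against 32.0% of seedling MHSs with 1 overlap and 36.8% of those with none. For the spikelet the shares were 28.6% (26.4 to 31.0%), 31.7% and 37.4%. The share was lower in members than in MHSs with 1 overlap on 21 of 21 chromosomes in the seedling and on 16 of 21 in the spikelet. Per 1000 MHSs of the list, split seedling MHSs numbered 12.4 in the first 5% of the chromosome and 14.8 in the last, 16.6 at 30 to 35%, and 26.7 at 70 to 75%, the highest bin. Split spikelet MHSs numbered 4.53 in the first bin and 3.96 in the last, 3.40 at 30 to 35% and 7.83 at 60 to 65%.

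Width differed along the chromosome too, and at equal width little of this difference was left. At 1000 to 1499 bp, the ends held 24.4% of split and 25.9% of 1-overlap seedling MHSs. At 800 to 999 bp they held 25.3% and 27.7%. In the spikelet the order turned in the classes below 1500 bp, with 27.5% of split and 23.9% of 1-overlap MHSs at 800 to 999 bp and 24.5% and 21.7% at 1000 to 1499 bp, while at 1500 bp or more the ends held 18.75% of the 80 split and 22.5% of the 169 MHSs with 1 overlap. The lower share of split spikelet MHSs in the ends was thus seen only in the widest class.

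**Figure D4:**
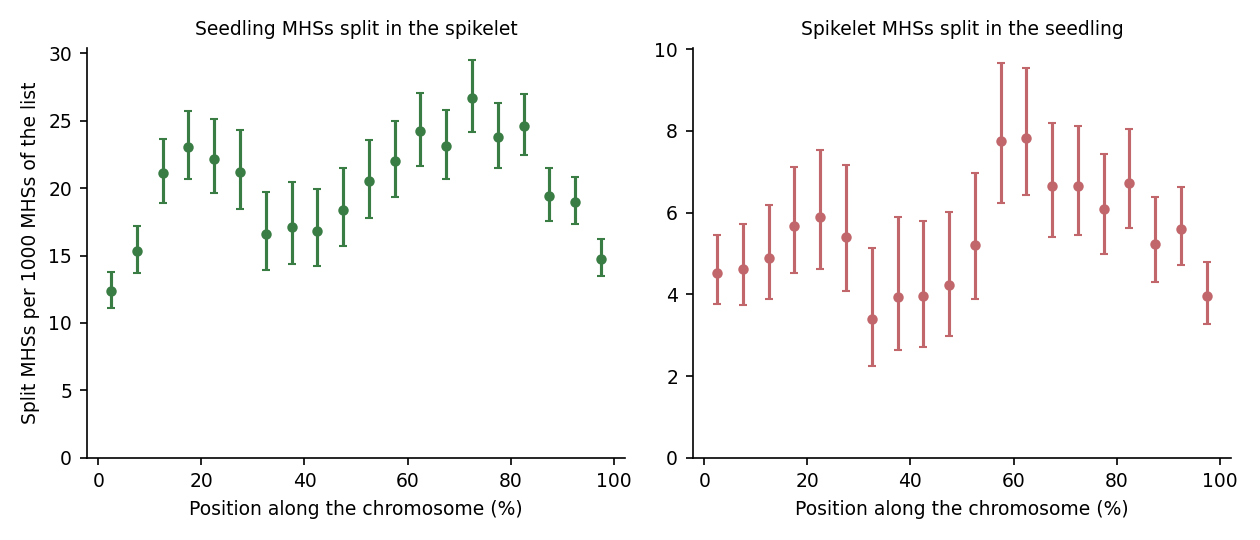
Split MHSs per 1000 MHSs of their list (vertical axes, of different scale) in 5% bins along the chromosome (horizontal axis, percent of length, all 21 chromosomes), for seedling MHSs on the left and spikelet MHSs on the right, with 95% Wilson intervals. The first and last bins (12.4 and 14.8 in the seedling) and the bins from 30 to 45% are low, and the highest are 26.7 in the seedling and 7.83 in the spikelet.

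Among the chromosomes, split seedling MHSs ranged between 16.7 per 1000 MHSs on 7B (14.8 to 18.9) and 22.8 on 2D (20.5 to 25.3), and split spikelet MHSs between 3.78 on 6A (2.79 to 5.12) and 6.91 on 6D (5.47 to 8.72). By subgenome, A held 35.1% of split seedling MHSs (33.9 to 36.4%), B 33.3% and D 31.6%, against 33.6%, 35.2% and 31.2% of the whole seedling list. Of split spikelet MHSs, A held 30.8% (28.6 to 33.2%), B 36.1% and D 33.1%, against 33.4%, 34.7% and 31.9% of the whole spikelet list. Subgenome A was thus above its share of the list among split seedling MHSs and below it among split spikelet MHSs, by less than 3 percentage points each. In 5 of the 7 homoeologous groups the A chromosome had the most split seedling MHSs per 1000, and in 2 of 7 the most split spikelet MHSs.

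The excess on subgenome A lay in the wide gaps, a pattern that was looked for after the gap lengths had been seen. Of the gaps under 140 bp in split seedling MHSs, 31.9% were on A, 35.9% on B and 32.2% on D. The A share was 33.6% at 140 to 199 bp and 34.0% at 200 to 299 bp, then 41.6% at 300 to 399 bp, 45.0% at 400 to 499 bp (166 of 369) and 40.1% at 500 bp or more. In split spikelet MHSs the gaps showed no such excess, with 29.1% on A at 300 to 399 bp and 22.8% at 400 to 499 bp (13 of 57).

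These wide splits on A were also placed differently. A gap of 300 bp or more was found in 550 split seedling MHSs on A, 385 on B and 370 on D (5.66, 3.78 and 4.09 per 1000 seedling MHSs). Between 30 and 50% of the chromosome length, where B had 36 of them and D 37, A had 107, or 10.5 per 1000 seedling MHSs (8.72 to 12.7), against 3.08 on B (2.22 to 4.25) and 4.08 on D (2.96 to 5.62). All 7 A chromosomes contributed, with 10 to 21 each, against 2 to 9 on the chromosomes of B and of D. This stretch is made of the highest bins of A (10.5 and 10.6 per 1000), and the intervals do not allow for its choice. In the bins beside it, at 20 to 30% and 50 to 60%, A had 7.68 and 7.93 per 1000. There B had 3.87 and 4.45, and D 5.04 and 4.31. In the first 10% of the chromosome A was also the highest, with 56 on A, 39 on B and 31 on D (3.68, 2.61 and 2.17 per 1000 seedling MHSs), and in the last 10% there were 62 on A, 55 on B and 67 on D (3.41, 3.06 and 3.99 per 1000). The spikelet had 2 such members on A, 7 on B and 5 on D in the same middle stretch (0.243, 0.702 and 0.625 per 1000 spikelet MHSs).

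In median width the 107 members in the middle of the A chromosomes were like the others, with 1106 bp, against 1092.5 bp for the 36 on B and 1096 bp for the 37 on D. Their quartiles, 1026 and 1199 bp, lay closer together than those on B (948 and 1311 bp) and on D (906 and 1304 bp). Their summit lay a median of 193 bp from the nearer edge (quartiles 171 and 242), against 211 bp on B and 239 bp on D, and 209 bp over all 550 members with such a gap on A. It fell on a spikelet piece in 99 of 107, against 23 of 36 on B and 28 of 37 on D. Their median fold was 6.65, against 4.90 on B and 5.20 on D. The stronger spikelet piece had a median fold of 6.74, against 4.75 on B and 5.30 on D. For the weaker piece the medians were closer, 4.03 on A, 3.88 on B and 3.59 on D. The local background had a median of 5.74 reads there, against 6.18 on B and 7.68 on D. The genes and repeats at these members were not analysed here.

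**Figure D5:**
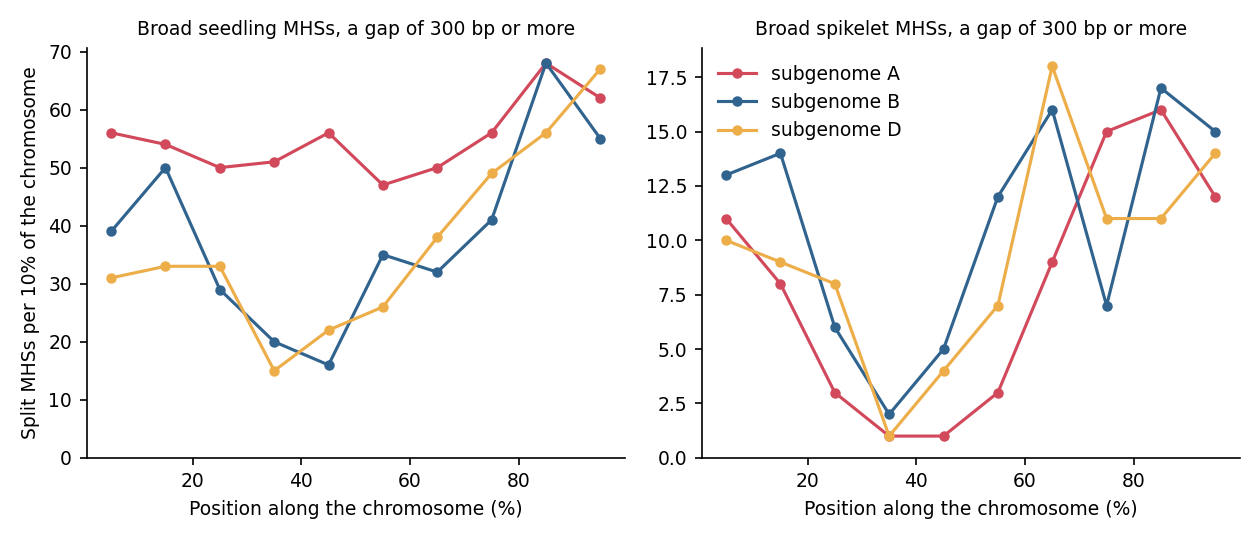
Number of split MHSs with a gap of 300 bp or more (vertical axes, of different scale) per 10% of chromosome length (horizontal axis), summed over the 7 chromosomes of each subgenome, for seedling MHSs on the left and spikelet MHSs on the right. In the seedling, A stays between 47 and 68 along the whole chromosome while B drops to 16 and D to 15 in the middle. These are numbers and not shares, and the list itself is thinner in the middle. Per 1000 seedling MHSs, B had 2.61 in the first 10% and 2.58 at 40 to 50%. D had 2.17 in the first 10% and 3.56 at 30 to 40%, and A had 3.68 in the first 10% and 10.6 at 40 to 50%. In the spikelet all 3 subgenomes are at 5 or fewer between 30 and 50%.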

How the data were processed

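MH-seq fragments were sequenced by the authors, trimmed, mapped with Bowtie2 to version 1.0 of the IWGSC assembly and merged over 2 replicates per tissue before MACS2 called peaks. The authors deposited 1 list per tissue, with a score per peak (the whole part of 10 times −log10 q), the fold as a ratio of pileup to background, a −log10 p-value, a −log10 q-value, and other columns with positions and the summit. Overlaps, widths and gaps were computed from the positions with Python 3.11.15, numpy 2.4.6, pandas 2.3.3 and scipy 1.17.1. Pileup and background at each summit were solved from the fold and the p-value by the Poisson tail. The pileup came out whole within 0.05 reads for 100% of peaks. Both steps were tested on simulated data. Chromosome length was taken as the end of the last MHS on each part. Depth is not given in the lists, so precision is that of counting regions: 95% Wilson intervals for shares and order-statistic intervals for medians. In each direction the text names the 3 members with the most pieces (ties by width), the 3 with the widest gap and the 3 with the largest fold. The members, the alternatives and this rule were chosen with earlier results of these data known. Gene annotation of version 1.0 was not used here.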

Additional observations from a re-analysis of the deposited data

How the results depend on the processing

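No paired analysis was possible because the replicates of a tissue were merged into a single list. Of 70 values under 10 alternatives (6 planned and 4 chosen after seeing the data), 26 stayed within their interval, or within 1.5 times for a count, and 44 moved. Only the ratio has a direction, and split seedling MHSs were the more numerous under every alternative. The order of the 2 median gaps did turn wherever neighbours were joined. It was 184 bp (seedling members) against 208 bp (spikelet members) in the lists as deposited, and 247 bp against 215 bp with joining under 140 bp. For each setting the numbers of split seedling and split spikelet MHSs, their ratio, the median gaps and the shares of broad summits on a piece are given where they moved. With a q of 0.001 or lower the ratio was 4.14 and the spikelet summit share 82.1%. With a q of 1e-05 or lower, 3475 split seedling and 700 split spikelet MHSs were left, the ratio was 4.96, the seedling gap 191 bp and the summit shares 90.0% (seedling) and 86.4% (spikelet). With the 190000 MHSs of lowest q in each list, 2365 split seedling and 657 split spikelet MHSs were left, the seedling gap was 196 bp and the summit shares 92.0% (seedling) and 87.5% (spikelet). With overlaps of at least 50 bp the ratio was 4.09 and the spikelet summit share 82.1%. With at least 50% of each piece overlapped, 858 split spikelet MHSs were left, the ratio was 4.98 and the summit shares were 89.6% (seedling) and 86.8% (spikelet). With neighbours under 150 bp joined, 3632 split seedling MHSs were left, the ratio was 1.87, the gaps were 256 bp (seedling members) and 222 bp (spikelet members) and the summit shares 84.4% (seedling) and 83.8% (spikelet). Of the settings added later, a q of 0.01 moved nothing. Joining under 140 bp left 3667 split seedling MHSs, a ratio of 1.82, gaps of 247 bp (seedling) and 215 bp (spikelet) and summit shares of 84.2% (seedling) and 83.7% (spikelet). Joining under 300 bp left 3253 split seedling MHSs, a ratio of 2.49, gaps of 432 bp (seedling) and 388 bp (spikelet), which this joining sets to 300 bp or more by construction, and summit shares of 87.2% in both directions. Joining under 150 bp and then keeping 190000 MHSs left 1607 split seedling and 951 split spikelet MHSs, a ratio of 1.69, gaps of 260 bp (seedling) and 223 bp (spikelet) and summit shares of 90.5% (seedling) and 90.1% (spikelet). Stricter lists hold fewer MHSs, which lowers both numbers by construction. Joining also takes out every gap below its limit by construction. Under 140 bp these were 2116 of 5842 gaps in split seedling MHSs and 0 of 1523 in split spikelet MHSs. How much of the turned order of the median gaps came from this cut was not tested. The cause of the other changes was not tested. Without replicate lists, neither the ratio nor any share has an error between plants. Depths are unknown, and whether pileups of both tissues share a scale was not tested. The lowest local background at any summit was 2.64 reads for seedling MHSs and 2.60 reads for spikelet MHSs.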

Other observations

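The number of split seedling MHSs with a gap of 300 bp or more was recounted by subgenome under each of the 10 alternatives, after the pattern had been seen. Subgenome A had the most in all 10. Restricted to MHSs whose q was 1e-05 or lower, the numbers were 377 on A, 243 on B and 218 on D, and 77, 23 and 23 of these lay between 30 and 50% of the chromosome. With the 190000 MHSs of lowest q in each list they were 263, 177 and 149, with 51, 17 and 17 in the middle. The MHSs of each subgenome in these shorter lists are not given here, so these are numbers and not shares. Joining neighbours under 140 bp left the numbers at 550, 385 and 370 by construction. It leaves the seedling list as it was and removes no gap of 300 bp or more between spikelet pieces. For split spikelet MHSs A had 79, B 107 and D 93, and after that joining 128, 162 and 153.

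Split seedling MHSs on A had a median gap of 199 bp and a median fold of 5.28, against 176 bp and 4.93 on B and 180 bp and 4.94 on D. For split spikelet MHSs the median gaps were 207.5, 209 and 208 bp on A, B and D. After joining neighbours under 140 bp, A held 36.8% of split seedling MHSs (35.3 to 38.4%) and 31.4% of split spikelet MHSs (29.4 to 33.4%).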
